A study of Danio rerio with 14 samples.

Results

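Boscalid larvae were compared with solvent control larvae of zebrafish across all genes that were measured well enough to test. Genes were taken from the boscalid table where the mean normalized count over its 8 libraries was at least 10, which held for 23085 of the 36351 genes listed. A normalized count is a number of reads for a gene after division by 1 size factor per library. Every animal was an AB wild-type zebrafish, and RNA came from whole eleutherolarvae, that is, hatched larvae that still live on yolk, at 96 hours post fertilization (hpf). The boscalid group was kept in boscalid at 0.03 µg/L from 3 hpf with daily renewal, and the DMSO group in dimethyl sulfoxide at 0.01% v/v over the same period. The labels do not say how much solvent the boscalid group received. The compound's primary metabolite, M510F01, was given to a further group at 0.03 µg/L. The labels name 14 samples, with 4 of DMSO, 5 of boscalid and 5 of M510F01. The tables hold 4 libraries of each group, and the fifth samples were not analysed here. Embryos exposed to higher concentrations are mentioned in the design, and no RNA sample is labelled with one. The labels are silent on clutches, dishes and pooling, so a p-value here measures the spread between these samples, which may be technical.

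Between 12893093 and 17060350 reads were assigned to genes in each of the 8 libraries, and 29277 to 30010 genes had a read. Genes with a symbol starting with mt- took 1.43% to 1.72% of the reads. This share leaves out the feature named for the whole mitochondrial genome. The 10 most abundant genes took 12.9% to 14.0% of the reads in DMSO and 11.5% to 13.5% in boscalid. Markers of several tissues were read, with all 25 rod genes, 35 of 36 intestinal genes and all 34 fast muscle genes above the limit of 10. Other lists were less complete, with 40 of 55 lens crystallin genes, 23 of 29 globin and haem genes and 2 of 7 vitellogenin genes above it. Libraries of one group also differed among themselves. The first component of those differences held 42.8% of the variance within groups, and on it replicates 1 and 2 were negative and replicates 3 and 4 positive in both groups. Results are therefore also given within replicates 1 and 2 and within replicates 3 and 4. In whole larvae, fewer cells of a type and less RNA per cell cannot be told apart, and this holds for every gene below.

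Boscalid is a fungicide that blocks succinate dehydrogenase, complex II of the respiratory chain, which passes electrons from the citric acid cycle to ubiquinone. Among the transcripts that differed most in these larvae were those of another system, the aryl hydrocarbon receptor (AhR). AhR is a transcription factor that waits in the cytoplasm with heat shock protein partners until a small molecule binds it. It then moves to the nucleus, pairs with Arnt and switches on genes of foreign-compound metabolism, above all the cytochrome P450 family 1 (cyp1) genes, together with its own repressors. In zebrafish larvae ahr2 is the form that mediates most responses to dioxin-like compounds, and skin, gut, gills and blood vessels are known sites of cyp1 induction.

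Few genes passed the test, and all that did were lower with boscalid. After limma and Benjamini-Hochberg adjustment over all genes, 4 of 23085 had an adjusted p under 0.05, which is 0.0173% of genes tested. They were cyp1b1, cyp1a, FP017215.1 and CR926130.1. None was higher, where 864 genes (3.74%) had an unadjusted p under 0.05 with a higher level and edgeR also called 0 higher genes, while DESeq2 called 22 (0.0953%). On the lower side 910 genes (3.94%) had an unadjusted p under 0.05, which makes 1774 in both directions (7.68%). The ranges of the 2 groups did not overlap in 986 genes (4.27%), with boscalid above DMSO in 508 (2.2%) and below it in 478 (2.07%). The count called depended on single libraries: it was 2 without DMSO replicate 1, DMSO replicate 2, boscalid replicate 2 or boscalid replicate 3, and 8, with 3 of them higher, without DMSO replicate 3. Cyp1b1 and FP017215.1 were called with any 1 library left out, at adjusted p of up to 0.0044 and 0.044.

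The lower side held the larger changes. The median log2 fold change of all genes was -4.4e-05, and the middle of the distribution ran from -0.48 at the 5th percentile to 0.36 at the 95th. A difference of at least 2-fold was estimated for 187 genes, 161 of them lower and 26 higher, and 116 of the 187 had means between 10 and 50. Among the 58 genes with an unadjusted p under 0.001 (0.251% of genes), 41 were lower (0.178%) and 17 higher (0.0736%). Of those 41, 27 were at least 2-fold lower, with a median log2 fold change of -1.26. The 17 higher genes had a median of 0.77, and 2 of them were at least 2-fold higher. Placeholder names, given for a clone or locus, were carried by 25 of the 58.

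**Figure D1:**
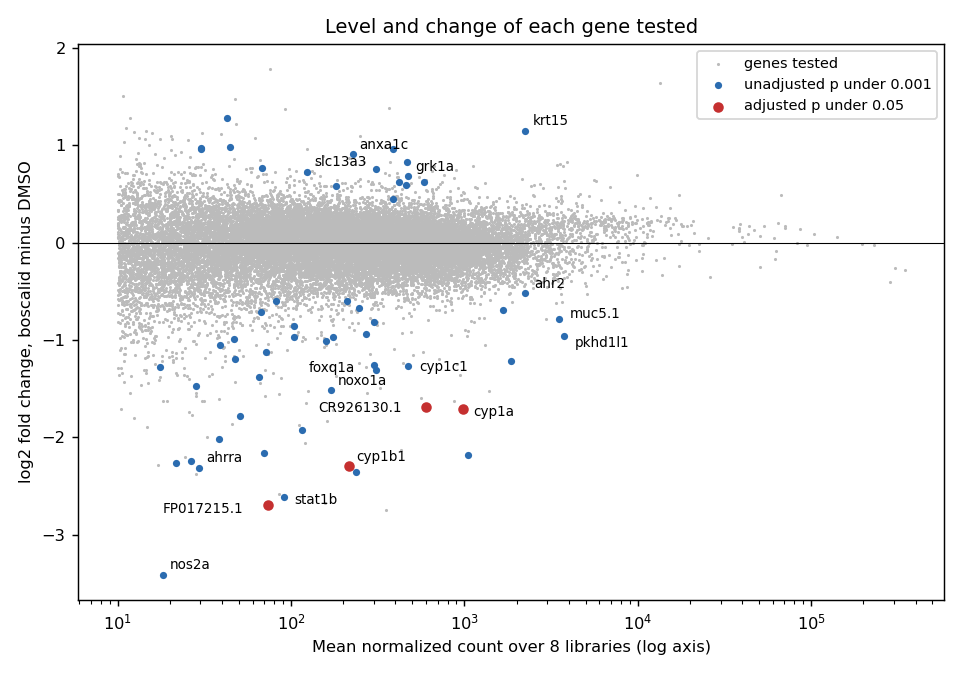
Each point is 1 of 23085 genes, with its mean normalized count over 8 libraries on a log axis and its log2 fold change, boscalid minus DMSO, on the vertical axis. Red points are the 4 genes with an adjusted p under 0.05, and blue points the other genes of the 58 with an unadjusted p under 0.001; 41 of these 58 lie below 0 and 17 above it.

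Precision set what could be seen. The median 95% interval reached 0.36 log2 units to either side of the estimate, a factor of 1.28. Between means of 10 and 50 the median standard error was 0.27, and between means of 250 and 1000 it was 0.13. Of the 7518 genes in that upper range, 21 were estimated to differ by at least 2-fold, 20 of them lower. At the limit of 10 the genes just inside were c1r, BX511142.1 and LOC792447, with means of 10.002, 10.003 and 10.008, and their log2 fold changes were -1.29, 0.69 and -0.58. XLOC_039021, XLOC_026920 and si:ch211-191c10.1 lay just outside, at 9.998, 9.997 and 9.996, with 0.36, 0.27 and 0.17.

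Cyp1b1 (LL0000008548) encodes a P450 that oxidizes polycyclic hydrocarbons and steroids. It was read at 319.1, 360.5, 434.3 and 323.5 normalized counts in DMSO replicates 1 to 4 and at 71.5, 59.7, 84.9 and 73.7 in boscalid replicates 1 to 4. The lowest DMSO library was thus well above the highest boscalid library. It was 4.90-fold lower with boscalid (log2 fold change -2.29, with a limma SE of 0.15 and an adjusted p of 0.00029). The log2 difference was -2.36 within replicates 1 and 2 and -2.23 within replicates 3 and 4.

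Cyp1a (LL0000008547) is the most used marker of AhR activity in fish. Its counts were 1262, 1382, 2165 and 1205 with DMSO and 345.0, 462.6, 481.1 and 512.1 with boscalid. DMSO replicate 3 stood above the other DMSO libraries, and the groups did not overlap with or without it. The level fell 3.27-fold (log2 fold change -1.71, SE 0.19, adjusted p = 0.019), by -1.72 and -1.70 within the lower and the higher pair of replicate numbers. Leaving out DMSO replicate 1, 2 or 4, or replicate 2 or 3 of boscalid, ended its call, with an adjusted p of up to 0.11 and a log2 fold change of -1.80 to -1.73 in those fits.

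FP017215.1 (LL0000010677) had the largest fall of the 4. It matches the long non-coding RNA gene LOC110366352 of the GRCz12tu annotation, with the synonym slincR, which lies between the somatostatin receptor gene sstr2b and the transcription factor gene sox9b. It was at 116.2, 112.2, 161.8 and 119.5 with DMSO and at 11.2, 25.2, 18.01 and 23.2 with boscalid. Every boscalid library lay far under the lowest DMSO count. The fall was 6.49-fold (log2 fold change -2.70, SE 0.25, adjusted p = 0.0054), and the differences within the pairs of replicate numbers were -2.69 and -2.71. Sox9b, the neighbouring gene, which acts in cartilage and fin development, did not pass the test and had an estimate of the other sign. Its counts were 264.9, 269.1, 180.4 and 303.4 with DMSO against 397.5, 459.8, 334.5 and 349.5 with boscalid (log2 fold change 0.61, SE 0.17, adjusted p = 0.50). Those groups did not overlap, where 2.2% of all genes were higher with groups apart.

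CR926130.1 (LL0000007182) had no match in the GRCz12tu annotation, and its product is not known here. It was at 832.2, 821.7, 743.2 and 1291 with DMSO and at 304.8, 305.0, 209.3 and 310.1 with boscalid. DMSO replicate 4 and boscalid replicate 3 each stood apart from the other libraries of their group, and the groups did not overlap. It fell 3.22-fold (log2 fold change -1.69, SE 0.19, adjusted p = 0.019), by -1.44 in the lower and -1.94 in the higher pair of replicate numbers. It was not called when DMSO replicate 1 or 2, or replicate 2 or 3 of boscalid, was left out, with an adjusted p of up to 0.11.

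**Figure D2:**
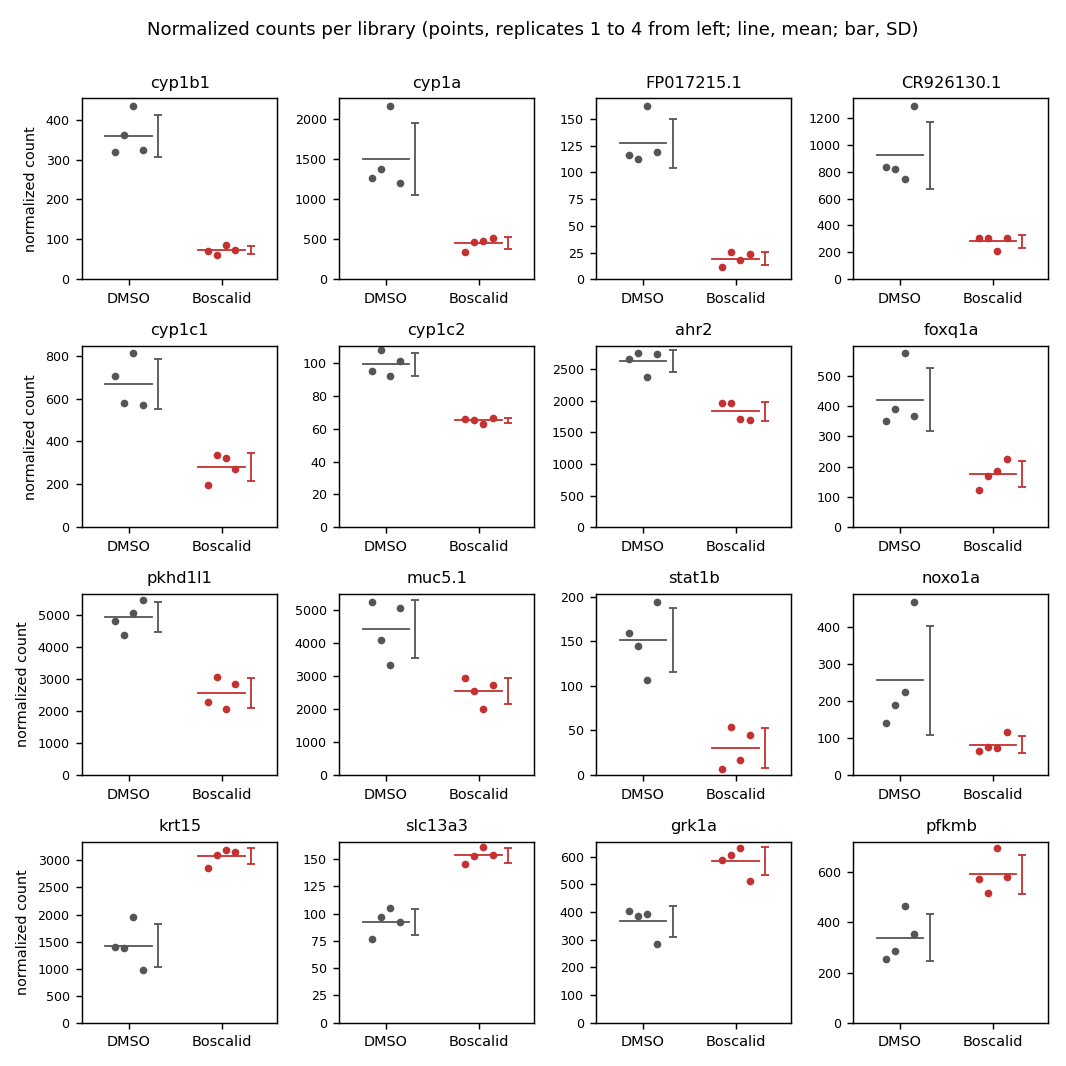
Normalized counts per library for 16 genes, with DMSO in grey and boscalid in red, replicates 1 to 4 from left to right in each group, a line at the mean and a bar of 1 SD. Vertical axes start at 0 and differ between genes. Cyp1b1, cyp1a, FP017215.1 and CR926130.1 have an adjusted p under 0.05, and in each of the 16 panels the groups do not overlap.

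The metabolite group received the other compound at the same concentration. For these 4 genes it is set against boscalid only, and M510F01 was not tested against DMSO here. All 12 libraries were rescaled together for this. The boscalid libraries are the same ones that singled out these 4 genes, and the same control libraries enter the estimate of spread. The values are therefore set side by side with no claim about overlap, and they are not separate support for the fall with boscalid. Cyp1b1 was at 258.6 ± 86.2 with M510F01 (SD, n = 4) and at a mean of 73.1 with boscalid on that scale, a difference of 1.77 in log2 (95% interval 1.36 to 2.18, adjusted p = 0.0032). Its M510F01 libraries ran from 201.7 to 386.4. FP017215.1 was at 114.5 ± 22.8 against 19.6, a difference of 2.53 (2.02 to 3.03, adjusted p = 0.0011). Cyp1a was at 1157 ± 568 with M510F01, with libraries from 829.2 to 2005, against 454.0 with boscalid. CR926130.1 was at 771.1 ± 288 against 284.7. For cyp1a and CR926130.1 the differences of 1.26 (0.69 to 1.82) and 1.38 (0.85 to 1.90) did not pass, at adjusted p of 0.62 and 0.29. In that fit 3 of 23131 genes were called (0.013%), all lower with boscalid than with M510F01. The third was zgc:165423, named after its values were seen, at a difference of 1.25 (adjusted p = 0.044). The count was 2 with TMM rescaling, with upper-quartile rescaling and with edgeR, and 2 or 3 with 1 library left out.

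Other members of the AhR system can be read by role. Of 9 genes for receptors and partner proteins, 6 had positive and 3 negative estimates, with a median of 0.03, which was -0.06 without boscalid replicate 1. The receptor gene ahr2 stood apart, at 2663, 2754, 2373 and 2738 with DMSO and at 1973, 1963, 1714 and 1700 with boscalid. Those groups did not overlap, and its log2 fold change was -0.52 (SE 0.11, adjusted p = 0.36). The adjusted p of ahr2 was 0.0007 in DESeq2 and 0.35 in edgeR. The 2 other receptor genes, ahr1a and ahr1b, were at 0.02 (SE 0.21) and 0.03 (SE 0.16), and were chosen after their values were seen. Arnt was at -0.25 (SE 0.20), arnt2 at -0.13 (SE 0.12) and the Hsp90 co-chaperone gene ptges3a at 0.14 (SE 0.11).

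Repressors of AhR are themselves its target genes and close the feedback loop. All 3 had negative estimates and groups that did not overlap, where 2.07% of all genes were lower with groups apart. None passed the limma test. Ahrra was at 36.4, 63.4, 49.0 and 46.5 with DMSO and at 3.3, 14.0, 8.6 and 14.1 with boscalid (log2 fold change -2.31, SE 0.39, adjusted p = 0.19). Boscalid replicate 1 was the lowest of the 8. The adjusted p of ahrra was 9.4e-07 in DESeq2 and 0.12 in edgeR. Ahrrb stood at -0.88 (SE 0.25, adjusted p = 0.52) and tiparp, which encodes an ADP-ribosyltransferase that marks AhR for removal, at -0.50 (SE 0.15, adjusted p = 0.54). Their summed counts were 435.3 to 607.7 with DMSO and 264.7 to 378.7 with boscalid.

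In the cyp1 family, 4 of 5 genes were lower with groups that did not overlap, against 2.07% of all genes. Of the 5, 2 passed the limma test, against 0.0173% of all genes. The list was chosen with earlier results of these data known, so these shares are a description. Cyp1c1 was at 708.1, 578.7, 813.8 and 568.7 with DMSO and at 195.4, 334.9, 322.5 and 269.7 with boscalid (log2 fold change -1.26, SE 0.18, adjusted p = 0.11). Cyp1c1 had an adjusted p of 8.7e-07 in DESeq2 and 0.11 in edgeR. Its neighbour and close copy cyp1c2 was at 95.5, 108.0, 92.2 and 101.5 against 65.9, 65.3, 62.6 and 66.7 (-0.60, SE 0.12, adjusted p = 0.36), the narrowest spread of the family within boscalid. Reads that fit both copies could be split or dropped in counting. Cyp1d1, a member that AhR ligands are not known to induce in zebrafish, was at 316.1, 288.8, 276.5 and 320.3 against 323.8, 312.5, 333.6 and 346.5, with overlapping groups (0.13, SE 0.10, adjusted p = 0.69). Summed over the family, DMSO libraries held 2519 to 3782 normalized counts and boscalid libraries 1002 to 1285.

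Among other genes known to respond to AhR, foxq1a, a forkhead factor, was at 352.6, 390.6, 575.5 and 366.8 with DMSO and at 123.9, 168.8, 187.0 and 226.3 with boscalid (log2 fold change -1.25, SE 0.20, adjusted p = 0.16). Foxq1a had an adjusted p of 2.1e-05 in DESeq2 and 0.18 in edgeR. Its paralogue foxq1b had overlapping groups (-0.30, SE 0.19). Of the 8 members tested here 2 had a positive and 6 a negative estimate, with a median of -0.25. The median was -0.13 without boscalid replicate 1. DMSO replicate 3 was the highest of its group for cyp1b1, cyp1a, FP017215.1, cyp1c1 and foxq1a, but not for ahrra, cyp1c2 or ahr2.

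Downstream enzymes of foreign-compound metabolism outside the cyp1 family did not share that direction. The 35 cyp2 genes had 28 positive estimates and a median of 0.21. At an unadjusted p under 0.05, 6 were higher and 1 lower, against 3.74% and 3.94% of all genes. Cyp2k6 was at 0.72 (SE 0.21) and cyp2n13 at 0.62 (SE 0.22). This median was 0.15 without DMSO replicate 1 and 0.38 without DMSO replicate 3. All 4 cyp3 genes were positive, at a median of 0.31 (0.18 without boscalid replicate 3 and 0.56 without DMSO replicate 3), led by cyp3c3 (0.54, SE 0.17). Of 60 conjugation enzymes 44 were positive, with a median of 0.17, which was 0.09 without boscalid replicate 4 and 0.26 without boscalid replicate 1. At an unadjusted p under 0.05, 3 were higher and 2 lower, against 3.74% and 3.94% of all genes. Groups were apart in 2, both lower, where 2.07% of all genes were lower with groups apart. The lowest estimate was that of the sulfotransferase gene sult5a1, at 101.4, 112.2, 203.0 and 347.8 with DMSO and at 56.9, 67.2, 42.0 and 69.7 with boscalid (-1.53, SE 0.35, adjusted p = 0.37), by -0.78 in replicates 1 and 2 and -2.27 in replicates 3 and 4. ABC efflux transporters (32 tested, median 0.01) and Nrf2 and redox genes (29 tested, median 0.04) were centred near 0. The Nrf2-family gene nfe2l2b was at -0.64 (SE 0.15, adjusted p = 0.38) with groups that did not overlap, and the malic enzyme gene me1 at 0.41 (SE 0.12, adjusted p = 0.55).

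Outside the AhR system the lower genes by rank included genes of the body surface and of defence. None of the genes in this and the next paragraphs passed the limma test, so values are given without a call. DESeq2 called many of them, pkhd1l1 and abca12 included. Of the 58 genes with an unadjusted p under 0.001 in limma it called 51, with 37 of the 41 lower and 14 of the 17 higher. Over all genes DESeq2 called 0.399%. The 58 were picked by small p in the same libraries, so these calls are not separate support. Pkhd1l1, a large membrane protein gene, was at 4807, 4357, 5060 and 5466 with DMSO and at 2287, 3042, 2051 and 2820 with boscalid (log2 fold change -0.96, SE 0.15, adjusted p = 0.12). The epidermal lipid transporter gene abca12 was at 2092, 1983, 1822 and 2320 against 1331, 1499, 1023 and 1278 (-0.69, SE 0.13, adjusted p = 0.36). Both lists of values are separate, as in each of the 58 genes of smallest p. Muc5.1, a gel-forming mucin, was at 5255, 4100, 3357 and 5069 against 2942, 2554, 2016 and 2724 (-0.79, SE 0.17, adjusted p = 0.36).

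Noxo1a encodes an organizer of an NADPH oxidase that makes superoxide, and its counts were 139.8, 189.1, 225.5 and 469.4 with DMSO against 65.9, 74.6, 72.0 and 115.2 with boscalid (-1.51, SE 0.33, adjusted p = 0.36). The interferon pathway factor stat1b was at 159.5, 144.4, 106.9 and 193.5 against 6.7, 54.1, 17.2 and 44.4 (-2.61, SE 0.53, adjusted p = 0.36). Boscalid libraries ranged widely here, over a factor larger than that between the group means. Nos2a, the inducible nitric oxide synthase, had few reads, at 13.8, 24.9, 20.6 and 78.2 normalized counts with DMSO and 0.0, 3.7, 2.6 and 2.0 with boscalid (-3.41, SE 0.60, adjusted p = 0.25).

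Further lower genes were adgrf8, an adhesion receptor gene (-0.94, SE 0.20), the calpain protease gene capn3b (-0.60, SE 0.12) and tfcp2l1, a grainyhead-like transcription factor gene of epithelia (-0.54, SE 0.12), each at an adjusted p of 0.36. Among lower genes with a placeholder name, chosen after their values were seen, were LOC100331080 and the locus CABZ01030033.1. The first was at 167.4, 170.4, 128.4 and 268.5 against 52.5, 63.4, 37.7 and 35.4 (-1.92, SE 0.25, adjusted p = 0.052), which was next in rank after the 4 called genes. CABZ01030033.1, named pnpla1 in the RefSeq annotation, was at 59.09, 114.3, 55.9 and 88.8 against 21.2, 16.8, 26.6 and 22.2 (-1.78, SE 0.25, adjusted p = 0.099). Pnpla1 in mammals makes the acylceramides of the skin barrier. The locus zgc:165423, also called between the compounds, was at 2534, 2437, 2959 and 2318 against 723.5, 1162, 1258 and 1374 (-1.22, SE 0.19, adjusted p = 0.12).

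The higher genes by rank included transporters, metabolic enzymes and tissue genes, and their changes were smaller. Krt15, a keratin gene, was at 1394, 1375, 1948 and 976.8 with DMSO and at 2857, 3106, 3196 and 3145 with boscalid (1.15, SE 0.18, adjusted p = 0.12). Boscalid libraries were close together, and the DMSO libraries spread over a factor near their distance from boscalid. Slc13a3, a transporter of citric acid cycle dicarboxylates including succinate, was at 76.8, 96.6, 104.9 and 92.0 against 145.2, 153.0, 161.2 and 153.5 (0.73, SE 0.13, adjusted p = 0.25). Its relative slc13a4, a sulfate transporter gene, was at 240.3, 207.8, 307.9 and 178.7 against 357.3, 361.0, 410.8 and 424.2 (0.76, SE 0.16, adjusted p = 0.36). For all 3 the groups did not overlap.

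Pfkmb, a muscle phosphofructokinase gene of glycolysis, was at 255.1, 284.7, 465.7 and 352.0 with DMSO and at 571.7, 514.9, 697.3 and 580.8 with boscalid (0.83, SE 0.18, adjusted p = 0.36). Slc27a2a, a fatty acid transport protein gene, was at 0.59 (SE 0.13) and gatm, which makes the creatine precursor, at 0.58 (SE 0.13). Anxa1c, an annexin gene, was at 0.91 (SE 0.20), actc1c, an actin gene, at 0.57 (SE 0.13) and the cobalamin carrier gene tcnbb at 0.79 (SE 0.18). Insm1a, a factor of neuroendocrine cells, was at 326.0, 325.2, 357.9 and 299.2 against 457.8, 448.7, 448.5 and 424.2, one of the tightest separations (0.44, SE 0.09). Ascl1a, a proneural factor gene, was at 0.53 (SE 0.13). Adjusted p of these genes was between 0.36 and 0.43.

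Agreement between the pairs of replicate numbers was a common feature of the ranked genes. For all 58 genes with an unadjusted p under 0.001 the difference had the same sign within replicates 1 and 2 and within replicates 3 and 4, and was at least 0.41 in size in each. This is a description, since a small p itself requires such values. With a term for replicates 1 and 2 against 3 and 4, a setting added after seeing the data, 17 of the 58 had an adjusted p under 0.05, 14 of them lower and 3 higher. Over all genes that fit called 19 (0.0823%), 16 lower (0.0693%) and 3 higher (0.013%), krt15 among them at an adjusted p of 0.042. It also called cyp1c1 and foxq1a, at 0.027 and 0.018, but not ahrra or ahr2, at 0.061 and 0.063. The term was taken from the split seen among these same libraries, so fitting it lowers the spread by its choice. These calls are therefore not separate support.

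**Figure D3:**
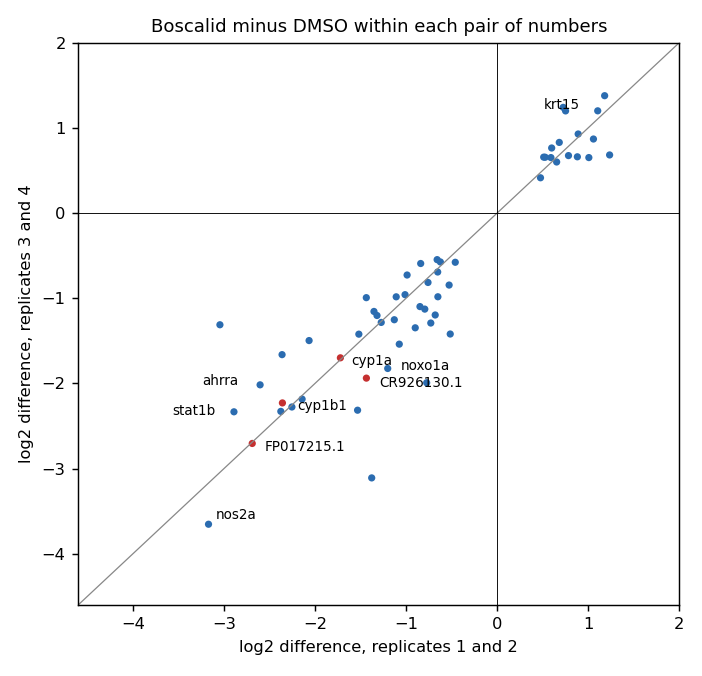
Each point is 1 of the 58 genes with an unadjusted p under 0.001, with the log2 difference of boscalid and DMSO within replicates 1 and 2 on the horizontal axis and within replicates 3 and 4 on the vertical axis; the grey line marks equal values. All 58 lie to the lower left or upper right of the origin, and the 4 red points have an adjusted p under 0.05.

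Complex II, the target of boscalid, had no gene past the test. Its 9 genes, counting assembly factors, had 7 positive estimates and a median of 0.23, against -4.4e-05 over all genes. Sdha, the flavoprotein subunit that oxidizes succinate, was at 2305, 2467, 1801 and 2052 with DMSO and 2416, 2082, 1839 and 1851 with boscalid. Sdhb, the iron-sulfur subunit, was at 1608, 1880, 2157 and 1930 against 1854, 2125, 2453 and 2452. Both pairs of groups overlapped, and in either group replicate 3 had the least sdha and the most sdhb. The membrane subunit genes sdhc and sdhdb had overlapping groups as well, at 0.23 (SE 0.16) and 0.28 (SE 0.14). Sdhda, the copy of the membrane anchor gene with few reads, was at 10.8, 7.3, 10.8 and 11.6 against 15.6, 15.9, 14.6 and 14.1 (0.55, SE 0.24, adjusted p = 0.65), the 1 gene of the list with an unadjusted p under 0.05. The list median was 0.11 without DMSO replicate 1.

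Genes of the rest of the mitochondrion had estimates above 0 almost throughout, at small size. In complex I 44 of 47 were positive (median 0.27), in complex III 12 of 12 (0.26), in complex IV 18 of 20 (0.23) and in ATP synthase 19 of 19 (0.27). All 76 mitochondrial ribosomal protein genes were positive (median 0.22). Of these, 9 were higher and 0 lower at an unadjusted p under 0.05, against 3.74% and 3.94% of all genes. Also positive were all 17 genes of the citric acid cycle (0.20) and all 12 listed genes of the mitochondrial genome (0.15). For those 12 the median was 0.05 in replicates 1 and 2 and 0.26 in replicates 3 and 4. The cytosolic ribosome was alike, with 81 of 83 positive and a median of 0.21. Over all genes 11541 of 23085 had a positive estimate. These lists moved with single libraries: without DMSO replicate 1 the medians were 0.18 for complex I, 0.11 for complex IV and 0.09 for the cytosolic ribosome. Without DMSO replicate 3 they were 0.41 for complex I, 0.37 for complex IV and 0.42 for ATP synthase, and without boscalid replicate 1 that of the cytosolic ribosome was 0.36. The median deviation of complex I genes from the DMSO mean was -0.25, -0.09, 0.38 and -0.03 in the DMSO libraries and -0.04, 0.19, 0.49 and 0.42 in the boscalid libraries, so that DMSO replicate 3 lay above boscalid replicates 1 and 2. In the citric acid cycle list mdh1ab, a malate dehydrogenase gene, was at 0.56 (SE 0.15, adjusted p = 0.49). Of single genes elsewhere, the complex I assembly factor ndufaf4 was at 0.44 (SE 0.14), mrpl41 at 0.46 (SE 0.16) and mrpl58 at 0.50 (SE 0.17), with groups that did not overlap and adjusted p between 0.58 and 0.61. Groups were apart on the higher side in 1 of 47 complex I genes and 4 of 76 mitochondrial ribosomal protein genes, against 2.2% of all genes. The count was 0 in complex III, complex IV and ATP synthase.

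In glycolysis 27 of 30 genes were positive (median 0.15), with 5 higher at an unadjusted p under 0.05, against 3.74% of all genes. Aldoaa, an aldolase gene, was at 0.57 (SE 0.16) beside pfkmb. Leaving out DMSO replicate 1 gave a median of 0.09, and leaving out DMSO replicate 3 one of 0.23. Fatty acid oxidation had 22 of 24 positive (median 0.17, 0.11 without boscalid replicate 4 and 0.26 without DMSO replicate 3), with cpt2 at 0.41 (SE 0.15) and the regulator gene pparab on the other side at -0.37 (SE 0.13). Genes that answer low oxygen were shifted the other way, with 21 of 31 negative and a median of -0.13, which was -0.02 if DMSO replicate 4 was dropped and -0.20 if boscalid replicate 4 was. The gene hif1al, with the RefSeq synonym Hif-3alpha, was at -0.35 (SE 0.14) and the glucose transporter gene slc2a1b at -0.30 (SE 0.12).

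Estimates of retinal genes lay mostly above 0. Rods, the cells of dim-light vision, had 22 of 25 genes positive with a median of 0.38, and 17 of the 25 had an unadjusted p under 0.05, all higher, where 3.74% of all genes did. Grk1a, the kinase that shuts off rhodopsin, was at 402.8, 385.4, 392.2 and 284.4 with DMSO and 587.3, 607.2, 630.4 and 511.1 with boscalid (0.68, SE 0.13, adjusted p = 0.36). Gnat1, the rod transducin, was at 700.2, 718.9, 809.9 and 566.6 against 982.6, 957.9, 1043 and 855.6 (0.47, SE 0.12, adjusted p = 0.47). In both genes replicate 4 was the lowest library of its group, and the groups were apart. The median deviation of the rod genes was 0.09, -0.03, 0.22 and -0.27 in DMSO and 0.33, 0.31, 0.54 and 0.34 in boscalid, and their summed counts were 14976 to 19346 against 20491 to 23592. Leaving out single libraries gave medians of 0.31 to 0.48.

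Cones had 24 of 29 positive (median 0.28, 8 higher and 0 lower at an unadjusted p under 0.05, against 3.74% and 3.94% of all genes). The median was 0.17 in replicates 1 and 2 and 0.41 in replicates 3 and 4, and 0.16 without DMSO replicate 4. The ultraviolet opsin gene opn1sw1 was at 0.49 (SE 0.19) and the cone transducin gene gnat2 at 0.43 (SE 0.18). Genes of the visual cycle and pigment epithelium had 18 of 20 positive (median 0.27), with the retinal G-protein-coupled receptor gene rgrb at 0.34 (SE 0.12) and dhrs13a.2 lower at -0.51 (SE 0.19). Lens crystallins had 37 of 40 positive at a smaller median of 0.16, which was 0.10 without boscalid replicate 3. The phosducin gene pdca, chosen by rank, was at 0.62 (SE 0.15).

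Estimates of digestive genes lay above 0 too, with a wide spread between libraries. In the exocrine pancreas, which makes digestive enzymes, 23 of 24 were positive with a median of 0.44. At an unadjusted p under 0.05, 12 were higher and 1 lower, against 3.74% and 3.94% of all genes. The elastase gene ela2 was at 2934, 2215, 3470 and 1794 with DMSO and 3188, 4555, 5735 and 4642 with boscalid (0.81, SE 0.23, adjusted p = 0.51). DMSO replicate 3 lay above boscalid replicate 1. In none of the 24 genes were the groups apart, where 4.27% of all genes had groups apart. The median deviations of the list were 0.00, -0.20, 0.54 and -0.33 in DMSO against 0.14, 0.45, 0.77 and 0.51, and the median was 0.67 without DMSO replicate 3. Intestinal genes had 29 of 35 positive (median 0.36), with the sodium-glucose transporter slc5a1 at 0.62 (SE 0.17) and the amino acid transporter slc6a19a.1 at 0.60 (SE 0.16). Liver secretory genes had a median of 0.11, which was 0.02 with DMSO replicate 1 left out and 0.19 with boscalid replicate 1 left out. Arg1, the urea-forming arginase, was at 16.7, 18.7, 24.5 and 21.1 against 41.3, 44.8, 36.9 and 37.4 (0.96, SE 0.19, adjusted p = 0.36). The largest estimate of the liver list was that of ahsg2, at 1.11.

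Histone genes had 25 of 27 members positive with a median of 0.32. At an unadjusted p under 0.05, 13 were higher and 0 lower, against 3.74% and 3.94% of all genes. Most histone transcripts lack a poly(A) tail and are kept by libraries made through removal of ribosomal RNA. Hist2h3ca1 was at 318.1, 296.1, 299.0 and 407.0 with DMSO and 505.8, 461.7, 611.5 and 457.6 with boscalid (0.63, SE 0.14, adjusted p = 0.36). Hist1h2a5 was at 0.48 (SE 0.13). Histone genes exist in near-identical copies, so reads may be assigned to one copy or another. Genes of DNA replication and mitosis had 27 of 36 positive and a median of 0.12, at 0.03 in replicates 1 and 2 and 0.18 in replicates 3 and 4. It was 0.06 without boscalid replicate 4 and 0.19 without DMSO replicate 4. Nusap1, a spindle protein gene, was at 0.45 (SE 0.14).

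Skin genes were read as 3 lists, and differences between the lists were not tested. Keratins had 18 of 23 positive (median 0.18, 4 higher and 2 lower at an unadjusted p under 0.05), with krt15 and cyt1l (0.83, SE 0.21, adjusted p = 0.45) first by p. Genes of the epidermal barrier other than keratins had 25 of 30 negative, with a median of -0.21. Of these 6 were lower and 2 higher at an unadjusted p under 0.05, led by pkhd1l1 and abca12. Over all genes 3.94% were lower and 3.74% higher at that p. Without boscalid replicate 1 the barrier median was -0.08, and the keratin median was 0.33 without DMSO replicate 3 and 0.08 without DMSO replicate 1. Mucus genes had 9 of 11 negative with a median of -0.36. Muc5.2, adjacent to muc5.1 among tested genes, was at 966.1, 662.8, 726.5 and 865.8 with DMSO against 495.8, 435.6, 422.8 and 724.3 (-0.65, SE 0.18, adjusted p = 0.51). Its boscalid replicate 4 lay within the DMSO range. Summed mucus counts were 8482 to 10204 with DMSO and 6735 to 7371 with boscalid. The mucus list had a median of -0.32 in replicates 1 and 2 and -0.39 in replicates 3 and 4, and -0.24 without DMSO replicate 1.

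Ionocytes, the ion-transporting cells of the skin, showed no common direction (12 of 27 positive, median -0.07). The carbonic anhydrase gene ca15a of acid-secreting ionocytes was at 73.9, 59.22, 88.2 and 67.7 with DMSO against 100.5, 112.9, 123.5 and 156.6 (0.76, SE 0.17, adjusted p = 0.37). On the other side the potassium channel gene kcnj1a.2 was at -0.84 (SE 0.22, adjusted p = 0.47). Claudins, the tight junction proteins, had 20 of 30 negative and a median of -0.14, which was 0.02 without boscalid replicate 1 and -0.23 without DMSO replicate 1.

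Defence genes lay below 0 as lists. In the interferon and antiviral list 16 of 18 were negative with a median of -0.34, and 7 were lower and 0 higher at an unadjusted p under 0.05, where 3.94% of all genes were lower. A further 15 of its 33 genes lay under the limit of 10. Beside stat1b, the RNA helicase gene dhx58 was at 58.1, 70.6, 75.5 and 33.8 with DMSO and 25.7, 25.2, 29.2 and 30.3 with boscalid (-1.02, SE 0.25, adjusted p = 0.42). Summed counts of the list were 3166 to 3574 against 2507 to 3093. Its median was -0.28 in replicates 1 and 2 and -0.49 in replicates 3 and 4, and -0.24 without DMSO replicate 4.

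Inflammation genes had 20 of 25 negative, with a median of -0.22, which was -0.10 without DMSO replicate 4. At an unadjusted p under 0.05, 4 were lower and 3 higher, against 3.94% and 3.74% of all genes. Nos2a was lowest, and the chemokine gene ccl34b.1 lay on the other side at 17.7, 25.97, 50.003 and 23.3 with DMSO and 50.2, 48.5, 75.5 and 94.95 with boscalid (1.22, SE 0.32, adjusted p = 0.47). Neutrophil and macrophage genes had 18 of 25 negative (median -0.16, -0.05 without boscalid replicate 1 and -0.25 without DMSO replicate 1). In that list the granulin gene grn2 was at 72.9, 48.8, 49.0 and 23.3 against 11.2, 22.4, 8.6 and 17.2 (-1.62, SE 0.37, adjusted p = 0.37) and the myeloperoxidase gene mpx at -0.53 (SE 0.21). Summed counts of these 25 markers were 13829 to 21990 with DMSO and 11017 to 20134 with boscalid, and their part in the inflammation values was not tested. Of 73 genes of the finTRIM family, a fish-specific branch of antiviral TRIM proteins, 37 were tested, and 24 of these were negative (median -0.13, -0.04 without DMSO replicate 4 and -0.21 without DMSO replicate 1). Complement and coagulation genes, made in the liver, had 28 of 38 negative and 0 with an unadjusted p under 0.05. That list had a median of -0.29 in replicates 1 and 2 and 0.00 in replicates 3 and 4, and -0.06 without boscalid replicate 1.

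Immediate early genes, which answer stimulation within minutes, had 26 of 31 negative with a median of -0.24. At an unadjusted p under 0.05, 7 were lower and 0 higher, against 3.94% and 3.74% of all genes. Atf3 was at 370.3, 549.6, 385.3 and 1043 with DMSO and 196.5, 347.9, 288.2 and 318.2 with boscalid (-0.92, SE 0.31, adjusted p = 0.60), and socs3a, a brake on cytokine signalling, was at -0.78 (SE 0.26, adjusted p = 0.61). For both, DMSO replicate 4 was the highest of the 8 libraries. The list median was -0.25 in replicates 1 and 2 and -0.26 in replicates 3 and 4, and -0.33 to -0.20 with single libraries left out. Stress lists were nearer to 0. Heat shock and unfolded protein genes had a median of -0.12, with trib3 at -0.69 (SE 0.16), and p53 and DNA damage genes a median of -0.17, with the death receptor gene fas at -0.93 (SE 0.26). The p53 median was -0.04 without boscalid replicate 1 and -0.25 without DMSO replicate 1, and without DMSO replicate 4 the heat shock median was -0.02.

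In sensory hair cells the list as a whole was centred near 0 (11 of 24 positive, median -0.04, and 0.11 without DMSO replicate 3). At an unadjusted p under 0.05, 5 of the 24 were higher and 2 lower, against 3.74% and 3.94% of all genes. The 2 lower genes, both for mechanotransduction channels, had the smallest p. Tmc2b was at 58.1, 49.9, 52.0 and 48.6 with DMSO and 29.0, 20.5, 18.01 and 34.3 with boscalid (-1.05, SE 0.22, adjusted p = 0.36). TMC1 was at 74.8, 93.5, 74.5 and 89.9 against 46.9, 45.7, 47.2 and 61.6 (-0.72, SE 0.16, adjusted p = 0.36). In each the groups did not overlap. The third channel gene, tmc2a, chosen after its values were seen, had an estimate of 0.51 (SE 0.20), and the hair cell factor genes atoh1b and pou4f3, chosen in the same way, were at 0.46 (SE 0.20) and 0.37 (SE 0.16).

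Many lists had medians near 0. Fast muscle genes had a median of 0.08 and 0 of 34 with an unadjusted p under 0.05, and heart genes a median of 0.14, which was 0.03 without DMSO replicate 4. Collagens were at a median of 0.04 over 57 genes and cartilage genes at 0.01 over 32. Transmitter receptors were evenly split, 37 of 74 positive, with a median of 0.00, and hox genes likewise, 25 of 49, at 0.01. With single libraries left out the medians of these lists other than heart lay between -0.07 and 0.16. Among the most abundant transcripts, the giant muscle genes ttn.1 and ttn.2 were at -0.28 (SE 0.17) and -0.26 (SE 0.16) and the myosin gene myhz1.1 at -0.02 (SE 0.13). The feature named for the whole mitochondrial genome was at -0.01 (SE 0.20), where the 12 listed genes of that genome had a median of 0.15. The abundant locus CR383676.1 was at -0.40 (SE 0.18, adjusted p = 0.65). In 27 lists of other tissues and pathways none of the 1054 entries was called. At an unadjusted p under 0.05, 52 were higher and 39 lower, against 3.74% and 3.94% of all genes. List medians ran from -0.62 for vitellogenins, of which 2 genes were tested, to 0.17 for enzymes of transmitter synthesis.

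**Figure D4:**
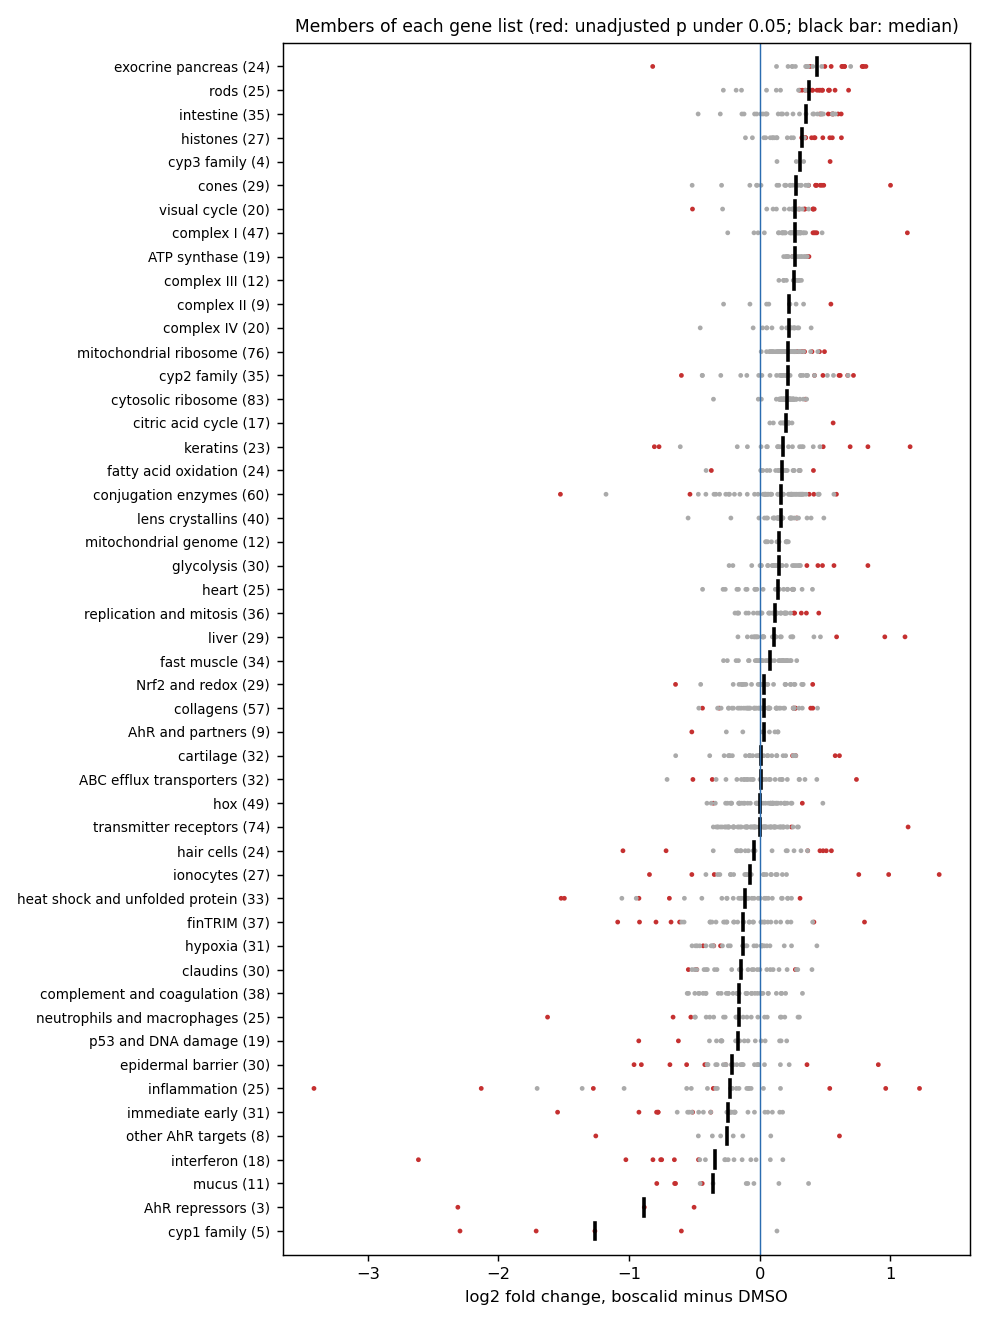
Log2 fold changes, boscalid minus DMSO, of the tested members of 50 gene lists, ordered by the list median (black bar), with the number tested in brackets; red points have an unadjusted p under 0.05. The cyp1 family (median -1.26) and the AhR repressors (-0.88) lie at the bottom, and exocrine pancreas (0.44) and rods (0.38) at the top.

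Several of the ranked genes lay side by side in the order of tested genes. Loci that were not tested or not matched can lie between such genes, and distance was not used. Tested genes were placed in the order of the GRCz12tu annotation, and a gene was counted where an adjacent tested gene had an unadjusted p under 0.05 in the same direction. This held for 8.39% of 20445 genes placed, for 231 of 1543 with an unadjusted p under 0.05 (14.97%), and for 15 of 50 with an unadjusted p under 0.001 (30.0%). Genes rather than places are counted, so a pair can be counted from both ends, as cyp1c1 and cyp1c2 were among the 15. The counts are a description with no test, and they include duplicated genes that may share reads, such as cyp1c1 and cyp1c2 or muc5.1 and muc5.2. The pairs below other than these were named after their values were seen.

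Stat1b lay beside stat4, a relative in cytokine signalling, which was at 220.5 ± 82.2 with DMSO and 120.8 ± 12.6 with boscalid (SD, n = 4 each; log2 fold change -0.80, SE 0.23). Tmc2b and TMC1 were adjacent, and on the far side of TMC1 zfand5a was at 747.9 ± 103 against 544.3 ± 78.1 (-0.46, SE 0.13). Cyp1d1, which was not lower, bordered tmc2b on its other side. Adgrf6, beside adgrf8, was at 620.7 ± 177 against 361.6 ± 68.8 (-0.76, SE 0.20). The locus zgc:100868, beside zgc:165423, was at 3816 ± 1548 against 2132 ± 508 (-0.79, SE 0.26). LOC101882112 and LOC100332535, also neighbours, had 2 of the largest differences, at 113.1 ± 30.0 against 26.3 ± 14.3 (-2.16, SE 0.33) and 390.2 ± 181 against 83.5 ± 62.1 (-2.35, SE 0.44). On the higher side hist2h3ca1 lay between zgc:163040 and si:dkey-23a13.22, of which the latter was at 262.6 ± 33.5 against 394.0 ± 57.4 (0.58, SE 0.14).

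The submitters' own comparison was set beside these counts. The authors' deposited table calls 85 of the genes tested here at its own adjusted p, 64 lower and 21 higher, with the same threshold of 0.05. In 81 of these 85 genes of the authors' deposited table the groups did not overlap, and 51 of them had an unadjusted p under 0.001 in limma. DESeq2 run here on the recovered reads called 92 genes (0.399%), 70 lower (0.303%) and 22 higher, 88 of which had groups that did not overlap. Both use the same libraries as limma, so they are not independent of it.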

How the data were processed

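RNA of whole larvae was sequenced from stranded libraries made after removal of ribosomal RNA, per the labels. FastQC, cutadapt, STAR, featureCounts and DESeq2 are named, without versions, in the submitters' processing notes; build, annotation and strandedness of counting were not given in the sources used here. The authors deposited, for each library, a signal per gene in normalized counts, which are reads divided by a size factor. They also deposited log2 fold changes and p-values per gene, in columns named as DESeq2 names them, used here for counts of genes only. No column of per-sample values was left out for want of a label (0), and the fifth samples were not analysed here.

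Differences were computed from log2 of the normalized count plus 1 with limma 3.58.1 (trend and robust settings, R 4.3.3), for genes with a mean of at least 10, and p-values were adjusted by Benjamini-Hochberg with a threshold of 0.05. Fold changes are on this scale, which understates changes of low genes. Intervals are 95% confidence intervals. A deviation in a list is the median over its genes of log2(count + 1) minus the gene's DMSO mean. Whole reads were recovered for 100% of values within 0.01 reads and tested with edgeR 4.0.16 and DESeq2 1.42.0. For M510F01 minus boscalid, all 12 libraries with a column were rescaled together by median-of-ratios and fitted jointly. Limma, the joint fit of 12 libraries, edgeR and DESeq2 were tried on simulated data. The simulated libraries were independent, with the same dispersion for all genes. That trial does not cover the differences shared between libraries here. Python 3.11.15, pandas 2.3.3 and matplotlib 3.10.9 were used for tables and figures.

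Genes and lists were chosen with earlier results of these data known. Named are genes past the threshold, the 15 of smallest p in each direction and, among those with an unadjusted p under 0.001, the 10 of largest change in each direction (mean of at least 50 and no placeholder symbol), the 2 to 4 members of smallest p of each list described, succinate dehydrogenase and cyp1 genes, and the 5 most abundant; others are said to be chosen after their values were seen. Of 2751 list entries 2723 matched a gene. Gene symbols are those the authors deposited. RefSeq names, synonyms and gene order came from the RefSeq annotation of GRCz12tu. Alternatives covered pseudocount, filter, scaling, weights, tools, replicate numbers and single libraries left out.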

Additional observations from a re-analysis of the deposited data

Results flagged for a closer look

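In 4 libraries of a group, a value was singled out where the highest or lowest library lay far from the other 3, beyond Dixon's 95% critical value for 4 samples. Of 262 groups examined 19 were singled out, and chance alone marks about 1 group in 20. DMSO replicate 3 was the high library for FP017215.1 (161.8 normalized counts, with the others at 112.2 to 119.5), foxq1a (575.5), foxq1b (183.3), slc5a1 (802.0), ndufb6 (593.2) and ptges3a (1142). DMSO replicate 4 was high for CR926130.1 (1291, with the others at 743.2 to 832.2), capn3b (292.8), trib3 (1049) and ftr34 (16.9), and low for grk1a (284.4, with the others at 385.4 to 402.8). DMSO replicate 1 was high for matn3b (185.1) and low for mcm7 (506.2). Among the boscalid libraries, replicate 3 was low for CR926130.1 (209.3, with the others at 304.8 to 310.1) and high for cyp2n13 (737.6). Boscalid replicate 4 was high for TMC1 (61.6, with the others at 45.7 to 47.2) and low for slc6a19a.1 (420.2), and boscalid replicate 1 was low for pdca (245.6) and cfbl (26.8).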

How the results depend on the processing

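The count of 4 genes for boscalid against DMSO was 4 or 5, with the same 4 genes among them, under other pseudocounts, filters and scalings, without the robust setting and with edgeR. It was 22 with array quality weights, 92 with DESeq2 on the recovered reads and 19 with a term for replicates 1 and 2 against 3 and 4, added after seeing the data. With 1 library left out it ran from 2 to 8. It was 90, 31 higher and 59 lower, with the replicate number as a block. Deviations of same-numbered libraries from their group means correlated by 0.51, 0.04, 0.37 and 0.24 for replicates 1 to 4. Not every library correlated best with its own number. The labels do not say whether a number pairs samples, so the block was not used in the main fit. For M510F01 minus boscalid the 3 calls became 2 with TMM rescaling, upper-quartile rescaling or edgeR, 8 with array quality weights, 20 with DESeq2, 8 with the replicate block and 5 with that term, and 2 to 3 with 1 library left out. Of 2600 values of named genes under other settings 2507 stayed on their side of the threshold, 75 passed it, 9 lost it and 9 turned sign. The latter were myhz1.1, at 0.0318 with array quality weights and -0.0719 to 0.0374 without single libraries, and the feature named for the whole mitochondrial genome, at 0.000228 with upper-quartile scaling and -0.146 to 0.109 without single libraries. Of 1000 list medians 6 moved by more than the spread, in 5 lists: AhR and partners (0.16) and immediate early genes (-0.33) with array quality weights, AhR repressors (-0.50) at a filter of 50, heart (0.03 and 0.05) and hair cells (0.11) without single libraries. The cause was not tested. Between means of 10 and 50 the median standard error was 0.27, and above 1000 it was 0.14. The part of depth in this was not tested.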
